A study of Mus musculus with 6 samples.

Results

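The genes described here serve the endoplasmic reticulum of the thyroid cell, where secreted proteins are folded, oxidised and checked, and where faults in that work start a stress response. They are 40 listed mouse genes, 11 chaperones and their partners, 8 disulphide isomerases and oxidases, 6 stress sensors and transcription factors, 6 targets of Atf4 and Chop, and 9 genes of degradation and translocation. A probe set carried the symbol of 38 of the 40, out of 19505 named genes on the array, and each gene is given by its brightest probe set. Manf and Pdia4 were not analysed here. Of the 38, 3 were matched under newer symbols (Ero1l as Ero1a, Ero1lb as Ero1b and Vimp as Selenos), and Ddit3 alone had several probe sets.

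Thyroid RNA came from 6 mice of a C57BL/6J background, 3 labelled Foxe1flox/flox/Cre, called knockouts here, and 3 labelled Cre control. All 6 carried Cre and received tamoxifen intraperitoneally at 0.05 g/kg on 5 consecutive days from an age of 6 to 8 weeks, and the gland was taken 2 weeks after treatment. Whether the controls carry a floxed Foxe1 allele is not stated in their labels. The promoter that drives Cre, the cells in which it acts and the sex of the animals were not found in the labels. Each animal gave 1 lobe and 1 array, so the spread between arrays is that between animals, and 3 arrays a group limit the precision of every value. Values are log2 RMA signals, and differences are knockout minus control on that scale.

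Thyroid follicular cells make and secrete thyroglobulin, a large glycoprotein with many disulphide bonds, and so depend heavily on this compartment. Hspa5 (BiP) and the other chaperones hold folding chains in solution, isomerases such as P4hb form and shuffle their disulphide bonds, and the Ero1 oxidases recharge the isomerases. When unfolded protein builds up, the sensors Ire1 (Ern1), Perk (Eif2ak3) and Atf6 respond. Ire1 and Atf6 raise chaperone and degradation genes, Ire1 by splicing Xbp1 RNA, and Perk slows translation while Atf4 and Chop (Ddit3) are made, whose targets include Trib3, Chac1 and Asns.

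Foxe1 was lower on every knockout array, at 3.33, 2.88 and 3.04 against 7.60, 7.19 and 7.04 on the control arrays (limma adjusted p = 0.000442). Array medians lay between 5.62 and 5.69. The thyroid label was borne out by thyroglobulin, Tg, at 18.67 or more on every array, but transcripts of muscle, squamous epithelium and airway were bright in every lobe too, and their levels by group are given beside the results they lie with. The parathyroid hormone gene Pth read 17.02 to 19.68 in the controls and 18.61 in knockout 2, but 3.56 in knockout 1 and 10.06 in knockout 3. Control 1 and knockout 3 gave little Y-linked signal, with Eif2s3y at 2.87 and 2.63 against 8.93 to 9.55 on the other 4 arrays, so each group held 1 such animal. In bulk tissue, fewer cells of a type and less RNA per cell cannot be told apart.

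No ER gene passed an adjusted p of 0.05 in limma, with 0 of 38 against 75 of 22206 probe sets, or 0.338%, over the whole array (0.252% higher and 0.0856% lower). The smallest adjusted p among them was 0.098. At an unadjusted p under 0.05 there were 6 of 38, against 12.7% of all probe sets, 5 of them higher (background 6.61%) and 1 lower (6.13%). The knockout arrays lay wholly above or wholly below the controls for 9 of the 38, or 23.7%, against 18.1% of all probe sets, and 7 of the 9 were higher in the knockout. Of the 38 differences, 17 were above 0, against 46.8% of all probe sets, and their median was -0.03 beside -0.02 over the whole array. The 95% interval of limma lay within 1 log2 unit, a 2-fold change, on both sides of 0 for 27 of the 38, against 77.1% of all probe sets.

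**Figure D1:**
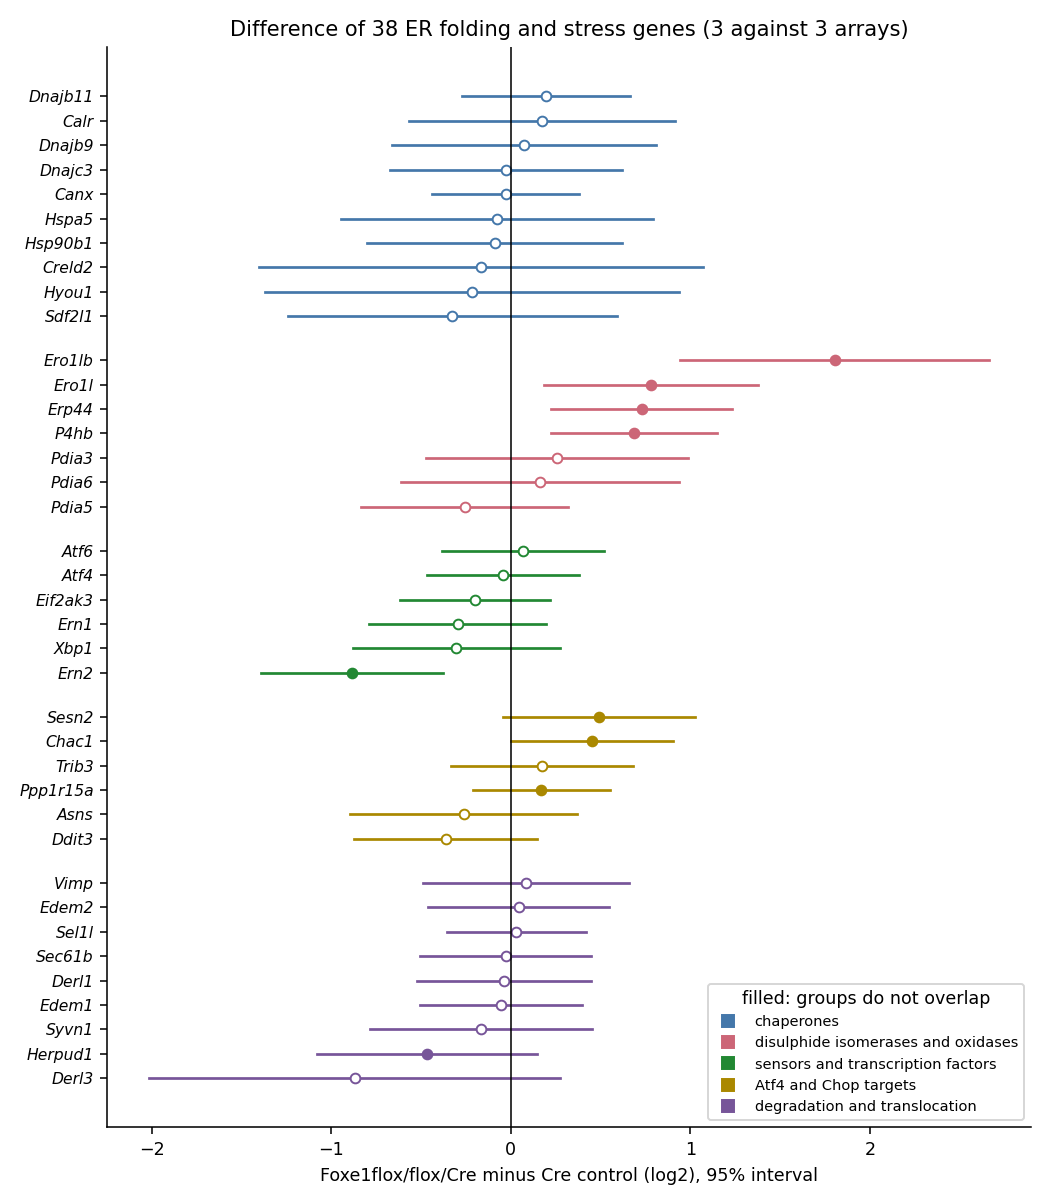
Knockout minus control difference (log2, horizontal axis) of each of the 38 genes, grouped by role, with limma's 95% interval over 3 arrays a group. Filled points mark the 9 genes whose groups do not overlap, among them 4 of the 7 isomerases and oxidases and none of the 10 chaperones.

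The isomerases and oxidases had the highest median difference of the 5 roles, and Ero1lb the widest single one, followed by Ern2 and Derl3 of other roles on the lower side. Of 7 measured isomerases and oxidases, 6 had higher means in the knockout, with a median difference of 0.69, and 4 had all knockouts above all controls, where 9.28% of all probe sets did. The 4 were both Ero1 oxidases, P4hb, the classical disulphide isomerase, and Erp44, which holds the oxidases and unfinished proteins back from leaving the compartment. No member of the group passed over all probe sets, and 4 had an unadjusted p under 0.05, where 6.61% of all probe sets were so on the higher side. Related genes of a wider folding list, described below, lay on both sides. Txndc12, Txndc5, Tmx2 and Tmx4 had all knockouts below all controls, at -0.79, -0.66, -0.35 and -0.36. Erp29 and Qsox2 had them above, at 0.34 and 0.56. Of 36 measured genes of that list, 4 lay above and 5 below the controls without overlap (background 9.28% and 8.78%).

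Ero1lb, the Ero1 form best known from secretory cells such as those of the pancreatic islet, measured 10.26, 9.72 and 8.67 on the control arrays against 11.53, 10.98 and 11.55 on the knockout arrays. Every knockout stood above the highest control, and the gap between the groups was 0.72 at its narrowest. The means were 9.55 ± 0.81 and 11.35 ± 0.32 (SD, n = 3 each), a difference of 1.80 (SE 0.38, 95% interval 0.94 to 2.66, limma adjusted p = 0.098), which is 3.49-fold. Control 3 was the lowest, and without it the difference was 1.36. Knockouts 1 and 3, with Pth at 3.56 and 10.06, read 11.53 and 11.55 for Ero1lb, and knockout 2, whose Pth lay within the range of the controls, read 10.98. A fit with parathyroid signal as covariate is given below as a value. The part of parathyroid tissue in the Ero1lb difference was not tested.

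Ero1l, the widely expressed oxidase, measured 9.11, 9.43 and 8.55 on the control arrays against 9.52, 9.86 and 10.05 on the knockout arrays. The groups came within 0.09 of each other without overlapping. The difference was 0.78 (SE 0.26, limma adjusted p = 0.254), and control 3 was again the lowest array.

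P4hb measured 13.24, 13.10 and 13.05 on the control arrays against 13.81, 13.53 and 14.11 on the knockout arrays. Its controls were close together, and the lowest knockout stood 0.29 above the highest of them. The difference was 0.69 (SE 0.20, limma adjusted p = 0.199), or 1.61-fold.

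Erp44 measured 12.66, 12.73 and 12.23 on the control arrays against 13.33, 12.98 and 13.50 on the knockout arrays, differing by 0.73 (SE 0.22, limma adjusted p = 0.211). All knockouts lay above all controls. Erp44 lies on chromosome 4 as Foxe1 does, with 16 protein-coding genes between them in the RefSeq table. Sec61b, a subunit of the translocation channel with 13 protein-coding genes between it and Foxe1, differed by -0.03 (95% interval -0.51 to 0.45). A part of the neighbouring locus in the Erp44 difference was not tested.

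The remaining isomerases did not separate the groups. Pdia3, which works on glycoproteins held by Calr and Canx, differed by 0.26, Pdia6 by 0.16 and Pdia5 by -0.26, with limma adjusted p of 0.74 or more. Control 3 was the lowest control for all 7 genes of the group, against 33.2% of all probe sets. Without it 4 of 7 differences were above 0 and the median was 0.54, with Pdia3 at -0.14 and Pdia6 at -0.26, while the 4 separated genes stayed between 0.54 and 1.36. Without control 1 and knockout 3, which lack Y-linked signal, all 7 differences were above 0 with a median of 0.60. With the mean of Pth and Casr, a parathyroid receptor gene, as covariate, Ero1lb differed by 1.69, in a fit that called 2 probe sets and 0 ER genes.

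**Figure D2:**
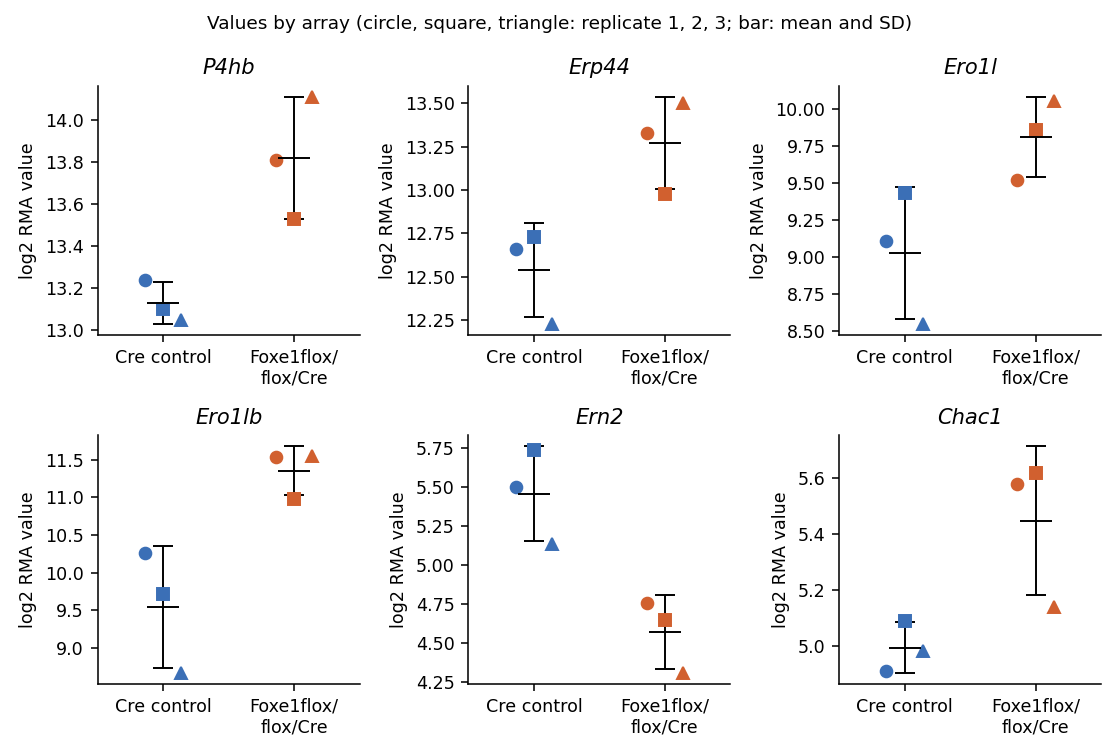
Log2 RMA values of P4hb, Erp44, Ero1l, Ero1lb, Ern2 and Chac1 on each array (circle, square and triangle for replicates 1, 2 and 3), with mean and SD of 3 arrays a group. The knockouts lie above all controls for 5 of the genes, most widely for Ero1lb, and below all controls for Ern2.

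Markers of the follicular cell lay on the same side as the oxidation genes. All 10 measured follicular markers had higher means in the knockout, none past the threshold, and 6 of them lay higher without overlap (background 9.28%). Their mean level was 8.18 to 9.85 in the controls, lowest in control 3, against 10.3 to 10.8 in the knockouts. The 10 differences ran from 0.04 for Tg to 4.83 for Slc5a5, whose control 3 read 2.97, with a median of 0.99. Tg read 18.67 to 19.27, near the highest value on any array, 19.93. The mean level of the 7 isomerases and oxidases was 10.5 to 11.3 in the controls, also lowest in control 3, and 11.5 to 11.8 in the knockouts. Squamous epithelium lay on that side too, with 9 of 11 markers higher, 6 of them without overlap (background 9.28%). Its list means were 13.6 to 13.9 in the controls and 14.3 to 14.9 in the knockouts, but its first markers, Krt5 and Krt14, differed by 0.09 and -0.45. Skeletal muscle lay on the other side, with 15 of 15 markers lower, 7 of them without overlap (background 8.78%). Its list means were 16.89 to 17.05 in the controls and 15.74 to 16.67 in the knockouts. The part of follicular cell content and of these tissues in the differences of the oxidation genes was not tested.

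The Ero1lb promoter is shown because Ero1lb had the largest difference and because its promoter holds the element through which Atf6 and Xbp1 act on chaperone genes. Sequences are RefSeq's, on assembly GRCm38.p6, and run from 250 bases before the transcription start up to it. The element, called ERSE, was searched as CCAAT followed after any 9 bases by CCACG, on both strands, and capitals mark the match, which here lies on the opposite strand from base 201 to base 183 before the start.
Ero1lb, chr13:12565633-12565882, plus strand: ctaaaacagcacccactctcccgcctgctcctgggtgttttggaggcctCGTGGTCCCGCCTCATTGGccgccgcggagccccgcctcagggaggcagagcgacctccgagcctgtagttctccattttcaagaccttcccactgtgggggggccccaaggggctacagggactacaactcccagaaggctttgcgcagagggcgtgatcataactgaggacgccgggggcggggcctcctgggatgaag
No exact ERSE was found in the windows of Ero1l, Erp44 or P4hb.

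Chaperones gave no such difference. Of 10 measured genes, 3 had higher and 7 lower means in the knockout, the median difference was -0.05, and differences ran from -0.33 to 0.20 with limma adjusted p of 0.757 or more. The groups overlapped for every one. For 7 of the 10 the 95% interval lay within 1 log2 unit of 0, and the other 3, Hyou1, Sdf2l1 and Creld2, had intervals that reached past 1 in at least one direction.

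Hspa5, the central chaperone of the compartment, measured 17.70, 16.83 and 16.12 on the control arrays against 16.56, 16.61 and 17.25 on the knockout arrays. The knockouts lay inside the span of the controls. The difference was -0.08 (SE 0.38, 95% interval -0.94 to 0.79, limma adjusted p = 0.961).

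Hyou1, which exchanges the nucleotide of Hspa5, measured 13.69, 12.32 and 11.51 on the control arrays against 11.88, 12.09 and 12.90 on the knockout arrays. Its controls spanned 2.18 log2 units and its knockouts 1.02, and the difference was -0.22 (SE 0.51). Creld2, a small secreted stress gene with an isomerase domain, read 8.51, 7.66 and 6.30 against 6.62, 7.30 and 8.05, a difference of -0.17 (SE 0.54). Sdf2l1, a partner of Hspa5 and Dnajb11, read 8.47, 7.72 and 6.87 against 7.22, 6.95 and 7.91. Its difference was -0.33 (SE 0.40).

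The other chaperones spanned less among the controls, from 0.17 for Canx to 1.31 for Dnajb9, beside a median of 0.48 over all probe sets. Hsp90b1 (Grp94), which folds receptors and integrins, differed by -0.09, and the lectin chaperones Calr and Canx, which hold glycoproteins, by 0.17 and -0.03. Among the J-domain partners of Hspa5, Dnajb9 differed by 0.07, Dnajb11 by 0.20 and Dnajc3 by -0.03. The narrowest interval was that of Canx, -0.44 to 0.38.

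The typical chaperone spread more widely among the control animals than the typical probe set. Their controls spanned a median of 1.30 log2 units and their knockouts 0.55, beside 0.48 and 0.46 over all probe sets. The controls spanned more than the knockouts for 9 of 10 chaperones and 27 of 38 ER genes, against 51.4% of all probe sets. Control 1 was the highest control for 10 of 10 chaperones, against 36.1% of all probe sets, and control 3 the lowest for 9 of 10, against 33.2%. This order was not particular to chaperones. In the wider lists described below, control 1 was the highest control for 20 of 24 N-glycan genes and 17 of 23 translocon genes. Control 3 was the lowest for 19 and 17 of them. Over all 176 wider genes the counts were 93 and 107. The group mean of the 10 chaperones was 13.1, 12.5 and 11.8 in controls 1, 2 and 3 and 12.2, 12.4 and 12.8 in knockouts 1, 2 and 3. Without control 1 all 10 differences were above 0 with a median of 0.33, and without control 3, 9 of 10 were below 0 with a median of -0.36, so the sign of the chaperone difference turned on single controls.

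**Figure D3:**
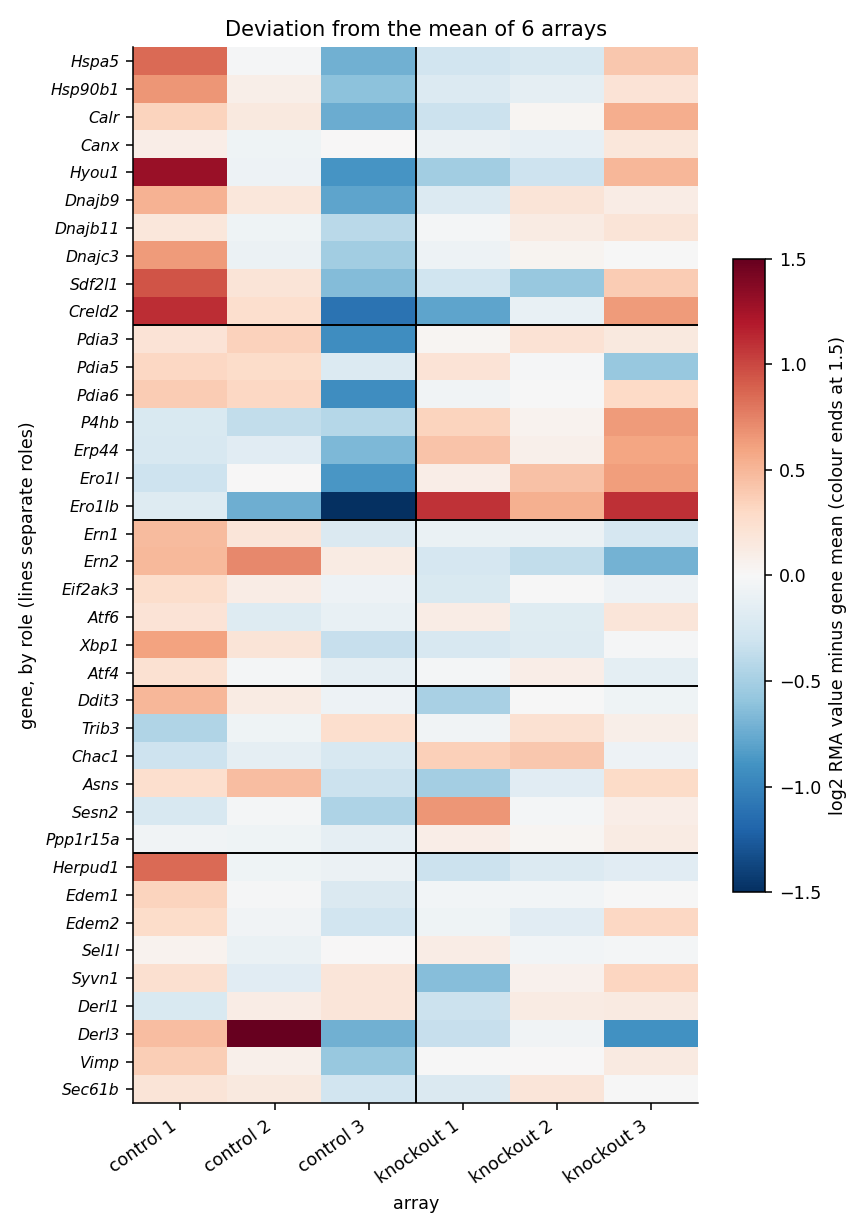
Log2 value of each of the 38 genes on each array minus the gene's mean over the 6 arrays (colour, red higher and blue lower), with black lines between the roles and between the groups. Among the controls, the chaperones at the top are highest in control 1 and for 9 of 10 lowest in control 3, while Ero1l, Ero1lb, Erp44 and P4hb are higher on the knockout arrays.

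The arrays with the highest chaperone values in each group were those with little Y-linked signal, which also had the lowest array weights in limma (0.708 and 0.593, against 1.05 to 1.52 for the others). The part of array quality in this pattern was not tested. Control 1 was the highest control and knockout 3 the highest knockout for 8 of 10 chaperones, and for 19 of all 38 ER genes, against 13.4% of all probe sets. This likeness was seen in the values before it was counted. It also held for 48 of the 176 wider genes, among them 11 of 24 N-glycan genes and 8 of 16 heat shock genes. With the genotype in the model, the 2 arrays without Y-linked signal were higher than the other 4 for 10 of 10 chaperones, where 51.5% of all probe sets were, with a median of 0.66. Hyou1 was higher by 1.35 (SE 0.30), Creld2 by 1.31, Sdf2l1 by 1.00 and Hspa5 by 0.95. None passed (0 of 38, smallest limma adjusted p = 0.347), where 0.0225% of all probe sets did, and 6 of 38 had an unadjusted p under 0.05, where 7.67% did. Sex was not given and 1 animal a group stood on that side, and a part of sex in these values was not tested. The chaperone median was 0.10 without both arrays, with 7 of 10 above 0.

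The stress element stood in the promoters of 6 chaperones and of 4 other ER genes. Of the 35 ER genes with a RefSeq promoter window, 10 held an exact ERSE in the 250 bases before the start, against 0.13% of all 27025 genes with a window. The chaperones among them are Hspa5, Hsp90b1, Calr, Canx, Creld2 and Dnajc3, and the others are Pdia6, Ero1lb, Syvn1 and Derl3. A related element, ERSE-II (ATTGG and, after any 1 base, CCACG), was found in Herpud1, against 0.037% of all genes, and the UPRE letters TGACGTG in Hspa5, against 1.85%. No matches of different motifs overlapped in these windows. The Hspa5 promoter is printed whole as the best known of them, with its UPRE and ERSE in capitals.
Hspa5, chr2:34771840-34772089, plus strand: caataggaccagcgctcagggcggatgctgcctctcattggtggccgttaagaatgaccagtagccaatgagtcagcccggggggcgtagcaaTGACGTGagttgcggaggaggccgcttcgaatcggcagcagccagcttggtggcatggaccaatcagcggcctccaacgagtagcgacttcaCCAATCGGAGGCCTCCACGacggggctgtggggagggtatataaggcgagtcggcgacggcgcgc
The others are given as the element with up to 20 bases on each side, to show how the 9 bases between the fixed ends differ from gene to gene. Hsp90b1 has 2 such elements.
Hsp90b1, chr10:86705513-86705571, minus strand: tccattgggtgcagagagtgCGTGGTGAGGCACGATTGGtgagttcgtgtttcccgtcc
Hsp90b1, chr10:86705618-86705676, minus strand: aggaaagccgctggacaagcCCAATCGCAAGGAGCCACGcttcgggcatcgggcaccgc
Calr, chr8:84847055-84847113, minus strand: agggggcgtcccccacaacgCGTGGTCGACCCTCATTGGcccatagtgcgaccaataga
Canx, chr11:50325780-50325838, minus strand: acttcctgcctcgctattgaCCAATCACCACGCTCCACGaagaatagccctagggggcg
Creld2, chr15:88819500-88819558, plus strand: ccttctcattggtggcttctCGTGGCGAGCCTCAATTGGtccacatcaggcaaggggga
Dnajc3, chr14:118937807-118937865, plus strand: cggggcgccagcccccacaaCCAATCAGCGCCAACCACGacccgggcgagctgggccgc
Pdia6, chr12:17266471-17266529, plus strand: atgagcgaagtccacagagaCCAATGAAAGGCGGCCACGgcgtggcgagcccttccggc
Syvn1, chr19:6046512-6046570, plus strand: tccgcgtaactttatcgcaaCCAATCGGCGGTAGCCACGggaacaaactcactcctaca
Derl3, chr10:75893222-75893280, plus strand: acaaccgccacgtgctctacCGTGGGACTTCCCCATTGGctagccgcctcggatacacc
A match is a description of the letters and not of binding.

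Genes with the element had differences on both sides of 0, and many of them were highest on the same arrays. The 11 measured genes with an ERSE or ERSE-II had a median difference of -0.08, from -0.87 for Derl3 to 1.80 for Ero1lb, and the 23 without one a median of 0.04. Control 1 and knockout 3 were the highest of their groups for 9 of the 11 and for 8 of the 23, against 13.4% of all probe sets. Many of the 11 are chaperones whose values had already shown this pattern, so these counts are no separate support for a link to the element. Beyond the 40 listed genes, which do not hold every gene of the compartment, 22 measured genes hold an exact ERSE or ERSE-II. Of those 22, 2 showed that pattern. Several of the 22 were dim on every array, where the order of arrays says little.

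Of the sensors, Ern2 stood apart. Ern2 is the Ire1 form of mucus-secreting epithelium, and it measured 5.50, 5.74 and 5.14 on the control arrays against 4.76, 4.65 and 4.31 on the knockout arrays. All knockouts were below all controls, as for 8.78% of all probe sets, and the difference was -0.89 (SE 0.22, 95% interval -1.39 to -0.38, limma adjusted p = 0.148). It was dim, at percentiles 37.4 to 50.4 of the probe sets on its arrays. In the airway secretory and goblet cell list 13 of 15 markers had lower means in the knockout, 7 of them without overlap (background 8.78%). The list's mean level was 13.4 to 14.2 in the controls and 12.7 to 13.1 in the knockouts. Agr2, an isomerase of mucous cells, read 9.23 to 10.68 in the controls and 8.64 to 8.85 in the knockouts, and the mucin Muc5b 14.52 to 15.69 and 12.95 to 14.22. The 2 markers with higher means were Spdef, at 4.73 to 5.86 and 5.47 to 6.62, and Muc5ac, at 3.09 or less on every array. The part of airway tissue in the Ern2 difference was not tested.

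The sensors of all cells had small differences. Ern1 differed by -0.30 (95% interval -0.79 to 0.19), Eif2ak3 by -0.20 (-0.62 to 0.22) and Atf6 by 0.07 (-0.39 to 0.52), each with overlapping groups. Atf4 measured 12.48, 12.23 and 12.12 on the control arrays against 12.23, 12.36 and 12.11 on the knockout arrays, differing by -0.04 (-0.47 to 0.38). These 4 intervals exclude a 2-fold change in either direction. Xbp1, whose RNA Ire1 splices, read 15.77, 15.35 and 14.82 against 14.92, 14.97 and 15.14, a difference of -0.30 (SE 0.25) that was -0.08 without control 1. One value per probe set does not tell its spliced from its unspliced form, and Atf4 is controlled mainly through translation, which arrays do not measure.

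The Atf4 and Chop targets were split. Of 6 genes, 4 had higher means in the knockout and 2 lower, with a median difference of 0.17, or 0.08 without both arrays lacking Y-linked signal, and no limma adjusted p below 0.39. Chac1, which degrades glutathione, measured 4.91, 5.09 and 4.98 on the control arrays against 5.58, 5.62 and 5.14 on the knockout arrays. Sesn2, a brake on the growth kinase mTORC1, read 3.85, 4.05 and 3.62 against 4.75, 4.06 and 4.18, and Ppp1r15a (Gadd34), which restores translation, 3.00, 2.99 and 2.92 against 3.16, 3.08 and 3.18. For all 3 the knockouts lay above the controls, by 0.05, 0.01 and 0.08 at the narrowest point, as for 9.28% of all probe sets. The differences were 0.45 (SE 0.20), 0.49 (SE 0.23) and 0.17 (SE 0.17). Sesn2 differed by 0.28 without knockout 1.

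These 3 were dim. Ppp1r15a lay at percentiles 9.18 to 17.0, under each array's lower quartile (3.49 to 3.60), Sesn2 at 26.0 to 42.1 and Chac1 at 43.1 to 49.8. The brighter Ddit3 and Asns lay on the other side. Chop itself, Ddit3, measured 9.72, 9.34 and 9.15 on the control arrays against 8.74, 9.22 and 9.16 on the knockout arrays, differing by -0.36 (SE 0.22), and 0.07 by its dimmer probe set. Asns, which makes asparagine, differed by -0.26 (SE 0.28), or -0.07 without knockout 1. Without control 1, Ddit3 differed by -0.20. Trib3, an inhibitor of Atf4, differed by 0.17 (SE 0.22), with overlapping groups.

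Elements that bind Atf4 with C/EBP partners were searched as TGATGNAA on both strands and found in the promoters of Asns, Chac1 and Herpud1, against 3.91% of all genes. They are shown because these 3 genes, of one element, gave differences of -0.26, 0.45 and -0.47. Capitals mark the match.
Asns, chr6:7693210-7693252, minus strand: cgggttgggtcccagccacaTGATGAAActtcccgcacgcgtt
Chac1, chr2:119351029-119351076, plus strand: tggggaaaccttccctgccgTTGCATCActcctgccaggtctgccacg
Herpud1, chr8:94386297-94386344, plus strand: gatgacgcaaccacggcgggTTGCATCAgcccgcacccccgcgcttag

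Chaperones and Atf4 targets were set against each other within each array. The mean of the 10 chaperones minus the mean of the 6 targets was 6.63, 5.92 and 5.43 on the control arrays against 5.62, 5.73 and 6.15 on the knockout arrays. The knockouts lay within the span of the controls. The group means were 5.99 ± 0.60 and 5.83 ± 0.28 (SD, n = 3 each), a difference of -0.16, which is less than the spread among the controls. It was 0.16 without control 1, -0.003 without both arrays lacking Y-linked signal, 0.10 over probe sets at or above the median level, which leaves out the dim targets, and 0.11 with the isomerases and oxidases counted among the folding genes.

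**Figure D4:**
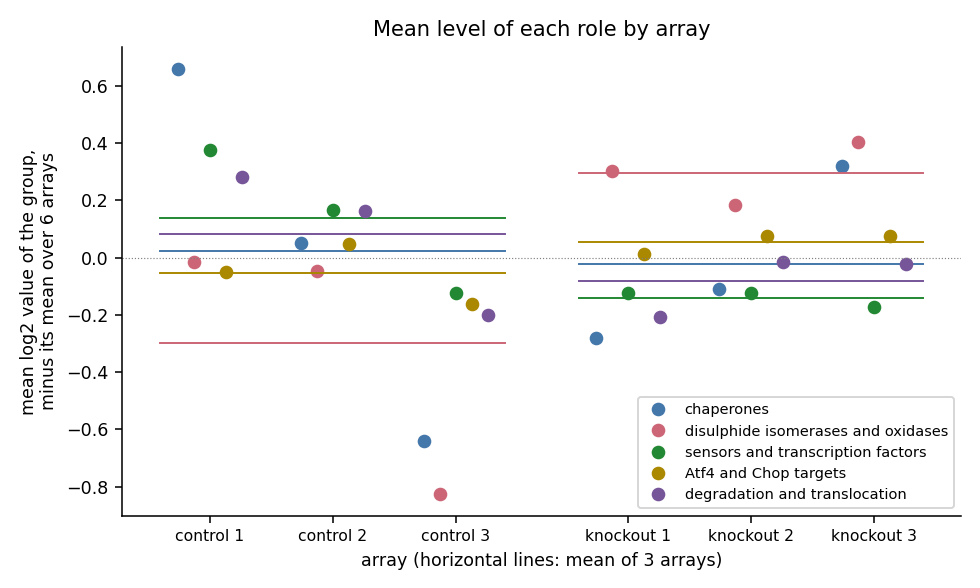
Mean log2 value of each role on each array, centred on its mean over the 6 arrays, with horizontal lines at the mean of each group of 3. The isomerases and oxidases lie between 11.5 and 11.8 before centring on every knockout array and at 11.3 or less on every control, while the chaperone means of the groups nearly coincide and spread widely among the controls.

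Most degradation and translocation genes differed little, with Derl3 and Herpud1 the exceptions. Of 9 genes 3 had higher and 6 lower means in the knockout, the median was -0.04 and no limma adjusted p was below 0.521. Herpud1, a membrane component of the degradation complex, measured 14.63, 13.71 and 13.69 on the control arrays against 13.45, 13.57 and 13.61 on the knockout arrays. All knockouts lay below all controls, narrowly. The difference was -0.47 (SE 0.27), and -0.16 without control 1, the highest array.

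Derl3, the Derlin of professional secretory cells, measured 5.66, 6.75 and 4.48 on the control arrays against 4.85, 5.14 and 4.29 on the knockout arrays. The difference of -0.87 (SE 0.50, limma adjusted p = 0.523) was -0.31 without control 2 and -1.45 without control 3. Plasma cell markers, the other cells known for Derl3, were split with 6 of 8 above 0 and none separating the groups. Jchain, the first marker of that list, read 3.00 to 3.58 in the controls and 3.04 to 4.87 in the knockouts. Mzb1 and Tnfrsf17 read 3.68 or less on every array, but Sdc1 read 13.65 or more and Prdm1 8.23 or more. The mean level of the list was 5.06 to 5.48 in the controls and 5.37 to 5.63 in the knockouts, and its part in the Derl3 values was not tested.

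The core genes of the degradation machinery had small differences. Syvn1, the Hrd1 ligase, and its partner Sel1l differed by -0.17 and 0.03, and Edem1 and Edem2, which trim mannose from glycoproteins bound for degradation, by -0.06 and 0.04. Derl1, a channel component, differed by -0.04 and Vimp, the selenoprotein that joins it to p97, by 0.08. The 95% intervals of all 6 lay within 1 log2 unit of 0, as for 77.1% of all probe sets. That of Sel1l ran from -0.36 to 0.42 and that of Syvn1 from -0.78 to 0.45.

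The wider machinery was followed in 176 measured genes of 8 further lists, of which the last, of heat shock genes, is described at the end. None passed the threshold (0 of 176, against 0.338% of all probe sets). At an unadjusted p under 0.05 there were 20 of 176, against 12.7% of all probe sets, and 35, or 19.9%, separated the groups, against 18.1%. Of 36 other folding genes 14 differences were above 0 (median -0.13), of 23 translocon, signal peptidase and signal recognition genes 7 (median -0.08), of 24 N-glycan genes 10 (median -0.11) and of 20 other degradation genes 13 (median 0.16). The 28 other Atf4 targets had 13 above 0 (median -0.09), the 11 aminoacyl-tRNA synthetases 6 (median 0.02) and the 18 other sensors and ER-bound factors 8 (median -0.06).

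Single genes of these lists with the smallest p are given as values. Among folding genes Txndc12 and Txndc5, both thioredoxin-domain proteins, differed by -0.79 and -0.66 and the calcium-binding Rcn1 by 0.78. Among translocation and glycan genes Spcs3 and Spcs1, subunits of the signal peptidase, differed by 0.53 and -0.28, Srpr by -0.54, Dad1, a subunit of the oligosaccharyltransferase, by 0.50, Krtcap2 by -0.51 and Gfpt1, which feeds glycan synthesis, by -0.73. Limma adjusted p was 0.174 or more for all of these. Single arrays moved several of them: Dad1 was 0.26 and Gfpt1 -1.19 without control 3, Spcs1 -0.13 without control 1, and Krtcap2 -0.22 without knockout 3 and -0.005 without both arrays lacking Y-linked signal.

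Of the other Atf4 targets, 4 of 28 lay above and 3 below the controls without overlap (background 9.28% and 8.78%). Slc7a11, the cystine transporter, measured 7.03, 8.18 and 6.71 on the control arrays against 8.40, 8.94 and 9.15 on the knockout arrays, differing by 1.52 (SE 0.38, limma adjusted p = 0.143). Every knockout was above every control. Slc7a3, a cationic amino acid transporter, was dim in the controls (2.81 to 3.57, around or under the lower quartile) and differed by 1.07, or 0.68 without knockout 3. Next by p came Jdp2, a repressor of AP-1 sites named after its values were seen, at -0.79 with all knockouts below all controls. The other named genes of these lists were the death receptor Tnfrsf10b at 0.70, the cysteinyl-tRNA synthetase Cars at 1.00, or 0.58 without knockout 3, and the synthetases Eprs and Mars at -0.38 and -0.37. Of degradation genes Sel1l3 differed by -0.72, or -0.46 without knockout 3, Ubxn4 by 0.40 and Rnf5 by 0.39. Among stress factors the adaptor Nck2 read 5.36, 5.56 and 5.44 against 6.38, 6.51 and 6.28, a difference of 0.94 (SE 0.18, limma adjusted p = 0.0737), and the ER-bound factors Creb3l2 and Creb3l1 differed by -0.50 and -0.95. Creb3l1 was -0.53 without control 1 and -0.28 without both arrays lacking Y-linked signal.

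**Figure D5:**
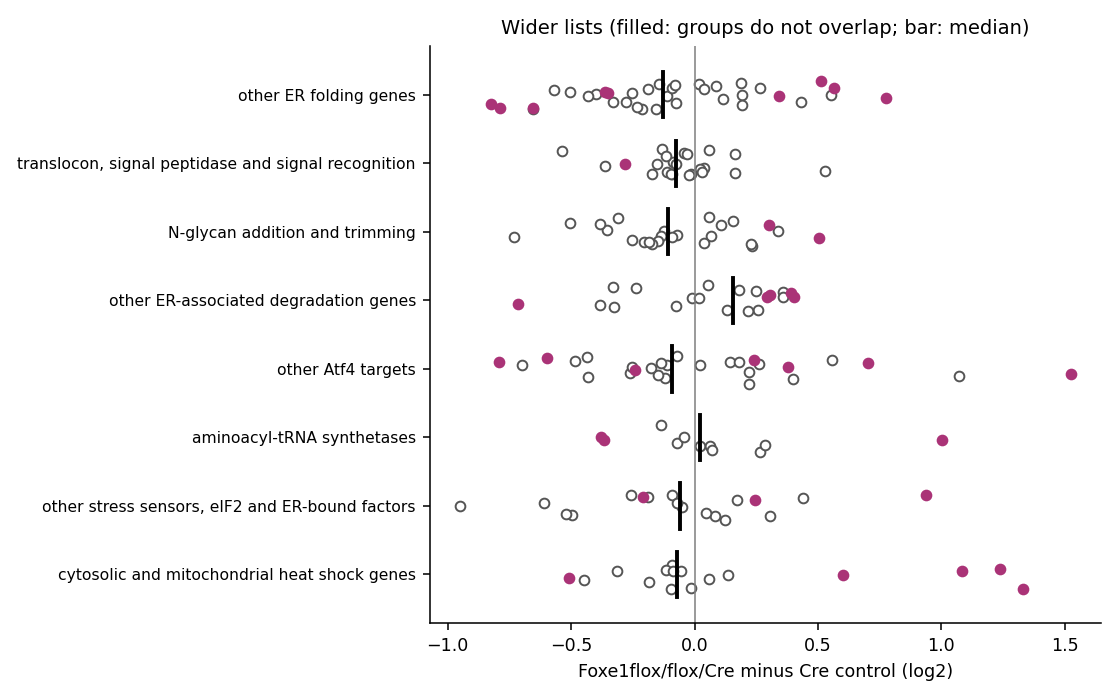
Knockout minus control difference (log2) of 176 further genes in 8 lists, 1 point a gene, with black bars at the list medians and filled points where the groups of 3 arrays do not overlap. The medians lie between -0.13 and 0.16, and the largest single differences are those of Slc7a11 and of 3 cytosolic heat shock genes.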

How the data were processed

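The values the authors deposited are log2 signals of probe sets, for which the submitters' processing notes name RMA and Affymetrix Expression Console; settings and genome build are not stated there. RNA of 1 frozen lobe per animal, of integrity number at least 7, was labelled from 250 ng, per the labels' protocols. RMA equalises the arrays' distributions, so a change shared by most transcripts is removed, and values run from 1.96 to 19.93. Of 22206 probe sets, 19572 had 1 symbol in GEO's annotation of the platform, updated to RefSeq symbols (GRCm38.p6) by gene identifier. All probe sets were fitted by lmFit and eBayes of limma 3.58.1 (R 4.3.3), and two-sided p-values were Benjamini-Hochberg adjusted over the whole table, with 0.05 as threshold. A list gene is its probe set of highest mean. Named genes are all measured ER genes, Foxe1 and, of each wider list, the 3 with the smallest p. Defining markers of other cells are named too (Tg, Pth, Casr, Muc5b, Muc5ac, Jchain, Krt5, Krt14). Eif2s3y, Agr2, Spdef, Slc5a5, Mzb1, Tnfrsf17, Sdc1, Prdm1, Tmx2, Tmx4, Erp29, Qsox2, Jdp2, Hspb1 and Hspa4l stand outside these rules and were named after their values were seen. The genes and lists were chosen with earlier results of these data known, so no list was tested. On simulated data for this comparison (22206 probe sets, 50 changed at each size) limma recovered 0% of changes of 0.5, 12% of 1 and 98% of 2 log2 units. Python 3.11.15 and matplotlib 3.10.9 drew the figures. Alternatives were other normalizations, variance models, filters, thresholds, the replicate number as a block and leaving out arrays. Covariates for Y-linked and parathyroid signal, and leaving out both arrays without Y-linked signal, were added after seeing the data.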

Additional observations from a re-analysis of the deposited data

How the results depend on the processing

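With 3 arrays a group, changes near 1 log2 unit were mostly beyond the reach of the test, and dim probe sets limit it further. None of the 38 ER genes passed an adjusted p of 0.05 under any of the 18 alternatives, and 1, Ero1lb, passed at 0.10, where 260 probe sets did. The 75 probe sets called became 118 with a robust intensity trend, 2 with the mean of Pth and Casr as covariate, 6 without both arrays that lack Y-linked signal, and 2 (without knockout 1) to 43 (without control 1) when single arrays were left out. Over the whole table the same-numbered arrays showed little common deviation (correlations -0.009, 0.076 and 0.017), though 0.076 was the highest of all pairings. Whether same-numbered arrays share a batch that acts on part of the genes was not tested. With the replicate number as a block 63 probe sets and 0 ER genes were called. Over the whole table the median difference was -0.02, and median centring made it 0.02. The median of the Atf4 and Chop targets was -0.26 among probe sets at or above the median level, which keeps fewer genes. Leaving out single arrays gave 12 to 26 ER genes above 0, a median over them of -0.18 to 0.19, a chaperone median of -0.36 to 0.33, a target median of 0.09 to 0.24, and a chaperone minus target difference of -0.44 to 0.16. Of the 38 genes, 15 kept their sign throughout. Among genes whose sign held when single arrays were left out, Dnajb11 ran from 0.0433 to 0.33, Pdia5 from -0.42 to -0.035, Ern1 from -0.48 to -0.13, Eif2ak3 from -0.29 to -0.12, Ddit3 from -0.49 to -0.20 and Asns from -0.49 to -0.0733.

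The others had small differences that turned sign, and the cause was not tested. With median centring the values were Canx 0.015, Dnajc3 0.0183, Atf4 0.00167, Derl1 0.005 and Sec61b 0.015. With renewed quantile normalization they were Dnajb9 -0.0164, Sel1l -0.0169 and Sec61b 0.0103, and with array weights Dnajc3 0.0453 and Atf4 0.00808. With the parathyroid covariate they were Hspa5 0.0149, Hsp90b1 0.032, Dnajc3 0.089, Creld2 0.32, Atf6 -0.11, Atf4 0.043, Asns 0.00888, Edem2 -0.000486, Sel1l -0.0597, Syvn1 0.0703, Derl1 0.16 and Sec61b 0.24. Without both arrays lacking Y-linked signal they were Hspa5 0.11, Hsp90b1 0.095, Hyou1 0.07, Dnajc3 0.28, Pdia5 0.055, Atf4 0.12, Trib3 -0.005, Edem1 0.08 and Sec61b 0.055. Over single arrays left out, the differences ran as follows: Hspa5 from -0.46 to 0.33, Hsp90b1 from -0.42 to 0.22, Calr from -0.15 to 0.38, Canx from -0.12 to 0.0267, Hyou1 from -0.71 to 0.38, Dnajb9 from -0.30 to 0.35, Dnajc3 from -0.29 to 0.29, Sdf2l1 from -0.73 to 0.065, Creld2 from -0.76 to 0.34, Pdia3 from -0.14 to 0.49, Pdia6 from -0.26 to 0.39, Atf6 from -0.0133 to 0.19, Atf4 from -0.12 to 0.0583, Trib3 from -0.00667 to 0.34, Edem1 from -0.18 to 0.0933, Edem2 from -0.0983 to 0.19, Sel1l from -0.0183 to 0.0633, Syvn1 from -0.37 to 0.11, Derl1 from -0.17 to 0.11, Vimp from -0.18 to 0.29 and Sec61b from -0.18 to 0.0717.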

Other observations

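Cytosolic and mitochondrial heat shock genes, which serve compartments other than the endoplasmic reticulum, held 4 members with all knockouts above all controls among 16 measured. Of all probe sets, 9.28% lay so. Hspa1b measured 9.49, 8.93 and 9.29 on the control arrays against 10.40, 10.42 and 10.88 on the knockout arrays, differing by 1.33 (SE 0.23, limma adjusted p = 0.0589, and from 0.0421 to 0.482 over the other settings). Hspa1a, a near-identical copy whose probes may share its signal, differed by 1.08, and their partner Dnajb1 read 9.59, 10.23 and 10.13 against 10.97, 11.21 and 11.48, a difference of 1.24 (SE 0.24, limma adjusted p = 0.0737). Of the list, 6 of 16 differences were above 0 and the median was -0.07. Hspb1, at 0.60, and Hspa4l, whose knockouts lay below all controls at -0.51, complete the 5 that separated the groups, against 18.1% of all probe sets, and were picked out after their values were seen.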
